A study of Homo sapiens with 6 samples.

Results

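The Krüppel-like factors (KLFs) measured here are 10 transcription factor genes, KLF2, KLF3, KLF4, KLF5, KLF6, KLF7, KLF9, KLF10, KLF11 and KLF13, which leaves out the erythroid factor KLF1. They were chosen by name: every probe set whose platform gene symbol is one of these 10 was taken, which gave 32 of the 54613 probe sets on the array that are not array controls. Of 19775 genes with a probe set of their own, they are 10. Gene expression was measured on 1-colour Affymetrix arrays in K562, an established human line from chronic myeloid leukaemia that carries the BCR-ABL1 fusion. The calactin group is 3 arrays of K562 cells given calactin, a plant cardenolide that inhibits the sodium pump, labelled 0.15 mM, and harvested at 12 h. The untreated group is 3 arrays of K562 cells given no agent over the same 12 h. The labels call the arrays of a group biological replicates and name no solvent control. The 0.15 mM dose rests on the labels alone; it is high for a cardenolide, and an error in its unit cannot be told apart from a true dose here. K562 is a single line that grows without normal blood cell neighbours.

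KLFs bind GC-rich and CACCC sequences in promoters through a run of zinc fingers at the end of the protein that is much alike across the family, while the rest of the protein differs and sets whether a gene is turned on or off. KLF2, KLF4, KLF5, KLF6 and KLF7 are known mainly as activators, KLF3 recruits the corepressor CtBP, and KLF9, KLF10, KLF11 and KLF13 recruit the corepressor SIN3A. In red cell precursors KLF1 drives globin and membrane genes, and KLF3, itself a gene that KLF1 activates, can hold the same CACCC sites as a repressor. Several KLF genes respond to growth factors, cytokines, hormones or shear stress within a short time.

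KLF6 rose and KLF13 fell with calactin, and no other of the 10 genes passed the test in limma without a replicate block. KLF6 was higher by 1.78-fold to 2.21-fold in 4 of its 5 probe sets. KLF13 was 2.12-fold lower in 1 of its 4 probe sets, and its other 3 lay below the median signal. With the replicate number as a block, KLF10 also rose, and a pair of KLF3 probe sets were called in opposite directions. Folds and log2 changes are those of log2(intensity + 16), which understates the change of dim probe sets. A call means an adjusted p under 0.05 in limma, with Benjamini-Hochberg adjustment over all 54613 probe sets, two-sided. In bulk RNA, fewer cells of a kind and less RNA per cell cannot be told apart.

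The 32 probe sets held 4 called higher and 1 called lower, or 15.6%, where 13.9% of all probe sets were called. Higher calls were 12.5% of the members against 3.68% of all probe sets, and lower calls 3.12% against 10.3%. All 4 higher calls were probe sets of 1 gene, so they are not independent of each other. The groups did not overlap for 6 higher and 3 lower members, 28.1% of them, where 28.4% of all probe sets had such groups, 9.36% higher and 19.0% lower. Of the 20 members above the median signal 5 were called, or 25%, where 26.3% of all such probe sets were, and of the 12 below it 0 were in limma (1 at an unadjusted p under 0.05). Calls below the median were few on the whole array: 7178 of its 7611 called probe sets lay above it. The members' median log2 change was -0.03, and that of all probe sets was -0.05. Taken by gene, with the brightest probe set of each, 2 of 10 were called, or 20.0%, where 21.4% of all genes were. Scaled to the poly-A spikes and with the replicate block, all probe sets had a median of 0.25, and 10 members were called higher, the 4 of KLF6 with KLF10, both of KLF11, 225133_at and 225140_at of KLF3 and 209212_s_at of KLF5, and 1 lower, that of KLF13. Of all 54613 probe sets, 10582 were then called higher and 1384 lower, so the whole array moved upward. In that setting, by rounded log2 changes, 12 members moved from below 0 to above it and 0 the other way. Of the 12 only KLF11 218486_at was called. KLF7 204334_at, whose change without scaling rounded to 0, was at 0.40 and not called. The share of calls that were lower was 73.6% over all probe sets in the unscaled fit without the block, 71.1% with the block alone, 11.6% with the block and poly-A scaling, and 54.7% with quantile normalization. The overall share of calls among the KLF genes was thus near that of the array.

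The arrays had median signals of 31.1 to 32.0 after calactin, all below those of the untreated arrays, 33.0 to 34.3 (intensity units). Correlations of log2 signals over the 27305 probe sets above the median were 0.983 to 0.991 within a group and 0.954 to 0.963 between groups. All 8 measured K562 markers, among them GATA1, TAL1, TFRC, HBZ and HBE1, lay above the median signal of a probe set, which was 32.5. Of these markers, 1 rose and 3 fell. Summed, they gave 37200 to 46600 intensity units in calactin arrays against 41600 to 47300 in untreated ones. Markers of 6 other kinds of cell were also read: 1 of 5 for T cells (CD3D) and 1 of 4 for fibroblasts (COL1A2) fell, and 0 of 3 for B cells, 0 of 3 for monocytes, 0 of 4 for endothelium and 0 of 4 for epithelium were called in limma (1, 1, 0 and 1 at an unadjusted p under 0.05). Their summed signals in calactin against untreated arrays were 1750 to 1930 against 2240 to 2650 for T cells, 904 to 1130 against 985 to 1220 for fibroblasts and 72.3 to 105 against 88.9 to 108 for B cells. For monocytes they were 678 to 824 against 854 to 908, for endothelium 400 to 444 against 307 to 421 and for epithelium 2450 to 2700 against 2860 to 3180. Except for B cells, most of each sum came from 1 gene. It was CD3D for T cells, COL1A1 for fibroblasts, LYZ for monocytes, PECAM1 for endothelium and EPCAM for epithelium. With the replicate number as a block, the K562 marker ALAS2 was also called higher and EPCAM lower (limma adjusted p = 0.0276 and 0.0292). No marker was listed at 0 in any array, but the endothelial markers CDH5, VWF and KDR were each at 1 in 1 array. The poly-A spikes, bacterial transcripts added to the RNA, were lower in calactin arrays by a log2 difference of -0.57, and the hybridisation spikes by -0.10. The part of these differences in the KLF values was not tested.

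The start regions of KLF6 and KLF13 are shown because these are the genes that rose and fell. The sequences are the 250 bases before the RefSeq transcription start on GRCh38.p14, written 5′ to 3′ on the gene's own strand, at chr10:3785210-3785459 on the minus strand for KLF6 and chr15:31326585-31326834 on the plus strand for KLF13. Capitals mark the GC box GGGCGG and the CACCC box CACCC, on either strand, the kinds of sequence that KLF zinc fingers bind.
KLF6: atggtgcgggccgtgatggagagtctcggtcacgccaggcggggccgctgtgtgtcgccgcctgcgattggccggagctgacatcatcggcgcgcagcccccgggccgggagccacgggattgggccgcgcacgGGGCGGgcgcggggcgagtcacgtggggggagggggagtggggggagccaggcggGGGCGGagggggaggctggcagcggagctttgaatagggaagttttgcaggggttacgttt
KLF13: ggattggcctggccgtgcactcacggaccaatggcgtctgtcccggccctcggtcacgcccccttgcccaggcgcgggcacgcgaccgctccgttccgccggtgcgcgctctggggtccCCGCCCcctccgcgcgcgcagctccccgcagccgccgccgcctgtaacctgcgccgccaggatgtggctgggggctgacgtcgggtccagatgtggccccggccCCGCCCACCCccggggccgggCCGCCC
The KLF6 stretch held 2 GC boxes, starting 116 and 61 bases before the start, and 0 CACCC boxes. The KLF13 stretch held 3 GC boxes, at 131, 27 and 6 bases before the start, and 1 CACCC box at 22 bases, which shares 1 base with the GC box before it. Both stretches also held 2 matches of CCAAT, at 184 and 131 bases in KLF6 and at 248 and 223 bases in KLF13. KLF6 alone of the pair held the E-box CACGTG, at 97 bases, and KLF13 alone held TGACG, at 56 bases. Of 35116 RefSeq promoter stretches of the same length, 42.6% held GGGCGG, 54.7% CACCC, 32.0% CCAAT, 21.2% TGACG and 6.34% CACGTG, counting both strands. GC content was 72.4% in KLF6 and 78.8% in KLF13, where the median stretch had 58.0%. The RefSeq table matched 8 of the 10 genes, with 13 stretches, and not KLF3 and KLF10. These matches describe the letters alone and are no evidence of binding.

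KLF6, a widely expressed factor induced by growth signals and injury and studied as a tumour suppressor, was called higher in 4 of 5 probe sets. On probe set 224606_at, its brightest, the signals were 1985, 1519 and 2059 in calactin replicates 1, 2 and 3 and 914, 864 and 1057 in untreated replicates 1, 2 and 3. The groups did not overlap, and calactin replicate 2 was the lowest of the treated arrays. The change was 0.95 ± 0.13 on the log2 scale (SE, n = 3 each; limma adjusted p = 1.82e-03).

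On 208960_s_at the KLF6 signals were 563, 543 and 655 with calactin and 251, 230.0 and 290.3 without. These groups lay farthest apart of the KLF6 probe sets, at 1.14 ± 0.12 (limma adjusted p = 5.78e-04). On 208961_s_at they were 1366, 1204 and 1421 against 707, 691 and 824, a change of 0.83 ± 0.10 (limma adjusted p = 1.10e-03). On 1555832_s_at they were 1214, 1068 and 1498 against 648, 717 and 720.1, a change of 0.83 ± 0.13 (limma adjusted p = 2.89e-03). In each of the 4 probe sets, every calactin array lay above every untreated one.

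The last KLF6 probe set, 211610_at, stayed near the median signal. Its values were 33.9, 26.9 and 31.8 with calactin and 36.0, 38.7 and 31.5 without, and the groups overlapped. Its change was -0.13, with a 95% interval of -0.53 to 0.26 that lies below the intervals of all 4 other KLF6 probe sets. Of the 4 called probe sets, 3 carry the _s_at mark of probes that match more than 1 transcript. Probe sets of a gene are not replicates, and their levels were not set against each other. Within a replicate number, the signal ratio of calactin to untreated on the 4 called probe sets ran from 1.49 to 2.36. With the mean of all 5 probe sets, KLF6 was at 0.73 ± 0.10 (limma adjusted p = 2.00e-03 over all genes). In replicates 1 and 2 alone, 224606_at and 1555832_s_at were no longer called (adjusted p = 0.0505 and 0.0539). Over 17 or 18 alternatives the log2 changes of the 4 probe sets ran from 0.70 to 1.64.

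KLF13, which activates the chemokine gene CCL5 in T cells and fetal globin promoters in reporter assays, was called lower on 225390_s_at. The signals there were 63.4, 74.2 and 67.4 in calactin replicates 1, 2 and 3 and 160.4, 173 and 154 in untreated replicates 1, 2 and 3. All calactin arrays lay below all untreated ones, with a spread of 5.44 and 9.56 (SD) around means of 68.3 and 162. The change was -1.08 ± 0.13 on the log2 scale (SE, n = 3 each; limma adjusted p = 1.11e-03), with a 95% interval of -1.38 to -0.78.

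The other KLF13 probe sets were dim. On 1564463_at the means were 18.0 ± 1.17 with calactin and 21.0 ± 2.70 without (SD, n = 3 each), on 230094_at they were 12.5 ± 5.62 and 21.3 ± 7.06, and on 219878_s_at they were 3.79 ± 1.11 and 5.96 ± 3.90. Their groups overlapped, and their log2 changes were -0.12, -0.39 and -0.14. The KLF13 result thus rests on 1 probe set. With the mean of all 4 probe sets, KLF13 was at -0.43 ± 0.11 (limma adjusted p = 0.0357 over all genes). The call of 225390_s_at was lost in replicates 1 and 2 alone (adjusted p = 0.0505), and its log2 change ran from -1.24 to -0.56 over 17 alternatives, the smallest fall being that under poly-A spike scaling with the replicate block.

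**Figure D1:**
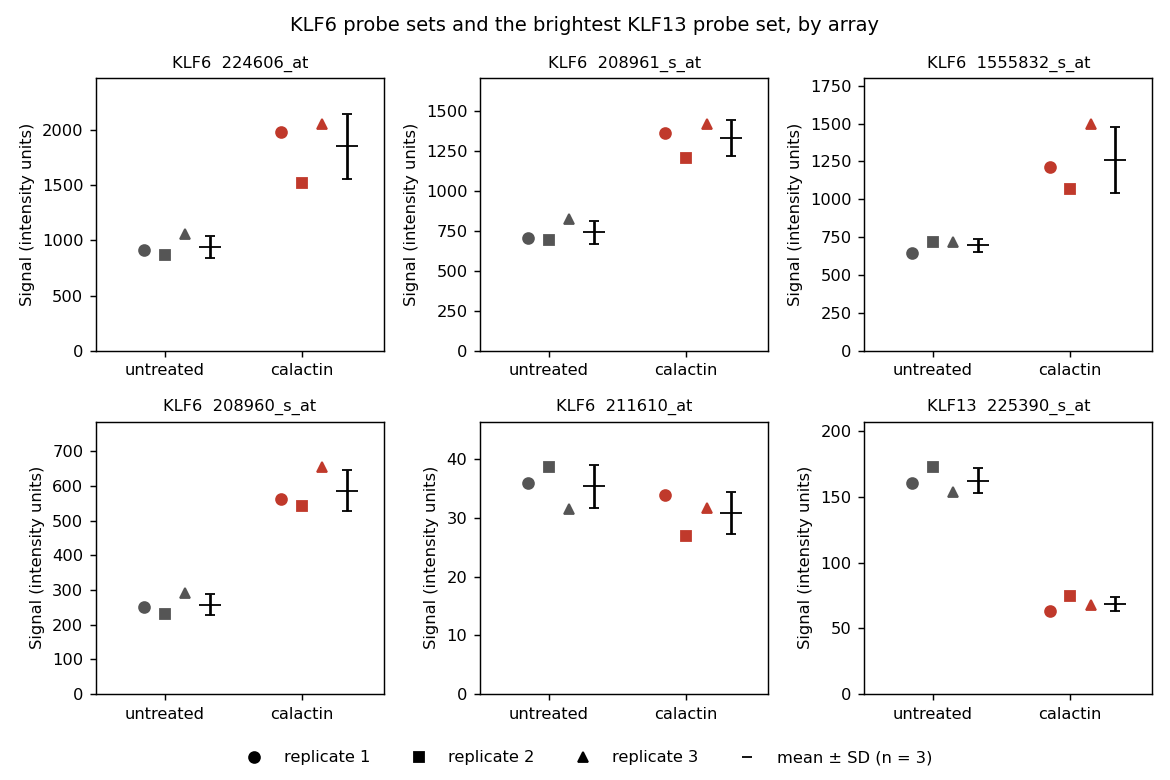
Signal in intensity units (vertical axes, from 0) of the 5 KLF6 probe sets and of KLF13 225390_s_at in untreated (grey) and calactin (red) arrays, with a marker for each replicate number and the mean ± SD beside them (n = 3 each). The calactin arrays lie above all untreated arrays in 4 KLF6 panels, overlap them on 211610_at, and lie below them for KLF13.

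Of the SIN3A-binding group, KLF10 and KLF11 are known as genes induced early by TGF-beta. KLF10 has 1 probe set, 202393_s_at, with signals of 1224, 2364 and 1332 in calactin replicates 1, 2 and 3 and 966, 1746 and 1127 in untreated replicates 1, 2 and 3. Replicate 2 was the highest in both groups, and the groups overlapped, while within each number the calactin array was higher, by a ratio of 1.27, 1.35 and 1.18. Without a block the change was 0.34 ± 0.28 (SE, n = 3 each; limma adjusted p = 0.554). With the replicate block it was 0.34 ± 0.06 and was called (limma adjusted p = 9.84e-03). Under the block 8 of the 32 member probe sets were called, or 25%, where 18.1% of all probe sets were, 6 higher (background 5.24%) and 2 lower (background 12.9%).

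KLF11 followed the same replicate numbers but was not called with or without the block. On 218486_at its signals were 264, 394 and 282 with calactin and 263, 448 and 275 without, a change of -0.04 ± 0.22. On 1553137_s_at they were 151, 213 and 133 against 133, 162 and 111, a change of 0.25 ± 0.20. Replicate 2 was again the highest of its group on both probe sets. The 95% intervals without the block, -0.55 to 0.46 and -0.20 to 0.70, leave room for changes of either sign. With the block the SEs were 0.09 and 0.11. Within a replicate number the ratios of calactin to untreated were 1.01, 0.88 and 1.03 on 218486_at and 1.13, 1.32 and 1.2 on 1553137_s_at. With poly-A spike scaling and the block both probe sets were called higher, at 0.49 and 0.73.

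KLF9, a gene switched on by glucocorticoid and thyroid hormone, was not called in any of 5 probe sets. On 203543_s_at, its brightest, the signals were 255, 221 and 264 with calactin and 268, 368 and 297 without. The calactin arrays all lay lower, by a small margin for the nearest pair, and the change was -0.31 ± 0.14 (limma adjusted p = 0.22). On 203542_s_at they were 131, 129.9 and 123 against 141, 141 and 135, also without overlap, at -0.11 ± 0.12. On 228474_s_at the groups overlapped, with 54.8, 32.6 and 45.3 against 43.8, 55.8 and 30.6. The last 2 KLF9 probe sets lay below the median signal and also overlapped. On 203541_s_at the values were 23.6, 20.9 and 21.9 against 35.7, 28.5 and 19.1, and on 230636_s_at they were 11.01, 13.1 and 25.1 against 29.9, 9.20 and 9.86. Their log2 changes and that of 228474_s_at ran from -0.18 to 0.04. With poly-A spike scaling and the block, 203543_s_at and 203542_s_at were at 0.23 and 0.37, not called, so the direction of KLF9 turned with the scaling.

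KLF3, the CtBP-recruiting repressor of the erythroid lineage, gave probe sets that went different ways. On 225133_at the signals were 764, 992 and 889.6 in calactin replicates 1, 2 and 3 and 613, 863 and 699 in untreated replicates 1, 2 and 3. On 222913_at they were 383, 554 and 420.3 with calactin and 495, 717 and 532 without. The groups overlapped on both, with replicate 2 the highest of each group, so without a block neither was called, at 0.28 ± 0.14 and -0.35 ± 0.17 (limma adjusted p = 0.282 and 0.274).

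Within a replicate number the arrays moved the same way each time on 3 of the 4 KLF3 probe sets. The ratio of calactin to untreated signal was 1.25, 1.15 and 1.27 on 225133_at and 0.774, 0.772 and 0.790 on 222913_at. With the replicate block both were called, the first higher at 0.28 ± 0.07 and the second lower at -0.35 ± 0.07 (limma adjusted p = 0.0243 and 0.0118). On 225140_at the ratios were 1.08, 1.06 and 1.04, and on 219657_s_at they were 0.781, 1.05 and 0.849, and neither was called with the block. With poly-A spike scaling and the block all 4 lay above 0, at 0.83 on 225133_at, 0.63 on 225140_at, 0.20 on 222913_at and 0.37 on 219657_s_at, with the first pair called, so the lower call of 222913_at was lost and its direction turned. With the mean of its 4 probe sets and no scaling, KLF3 was at -0.04 ± 0.11. Without scaling no single direction can be given for the gene.

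**Figure D2:**
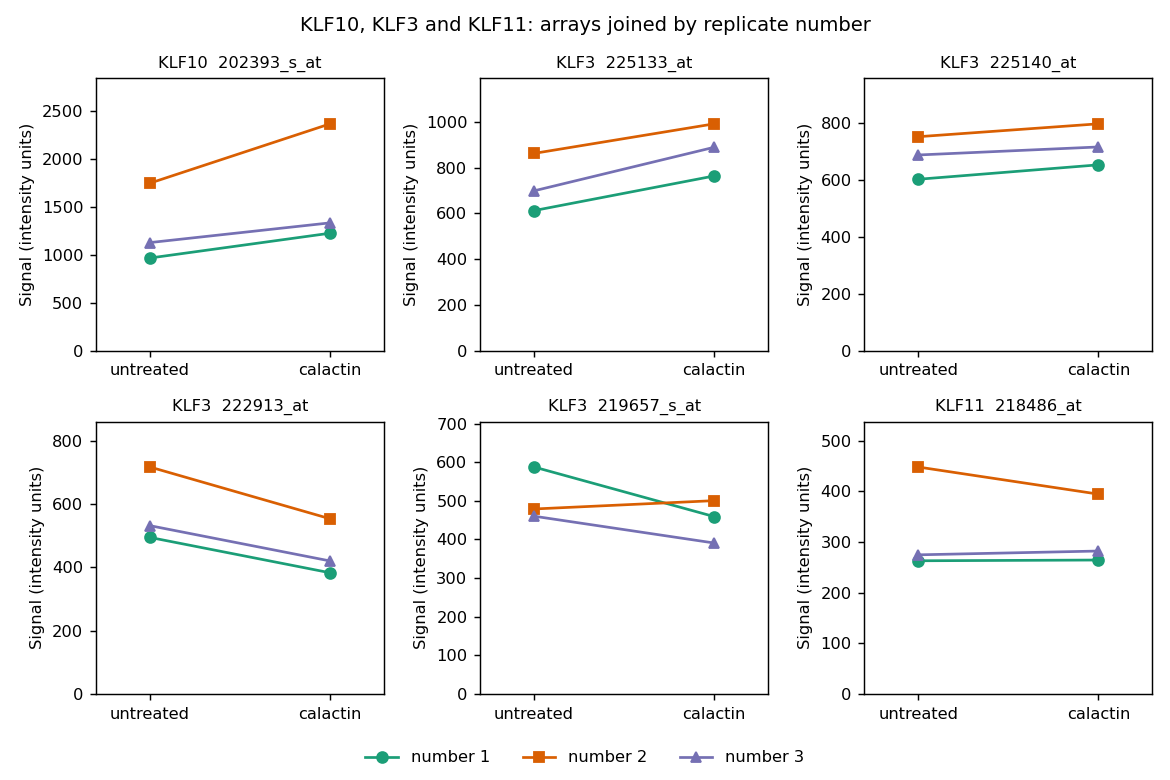
Signal in intensity units (vertical axes, from 0) of KLF10, of the 4 KLF3 probe sets and of KLF11 218486_at, with lines that join the untreated and the calactin array of the same replicate number. Replicate 2 lies highest in both groups for KLF10, for 225133_at, 225140_at and 222913_at of KLF3 and for KLF11, and the lines of KLF10 and of KLF3 225133_at all go up while those of KLF3 222913_at all go down.

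The remaining activators were dim or did not pass the test. KLF2, which endothelium makes under flow and which keeps lymphocytes quiescent, had signals of 68.3, 71.1 and 73.0 with calactin and 75.7, 73.4 and 67.9 without on 219371_s_at. The groups overlapped at -0.02 ± 0.14, with a 95% interval of -0.35 to 0.30. On 226646_at, below the median signal, the KLF2 values were 29.9, 32.5 and 24.4 with calactin and 22.8, 16.8 and 17.6 without, higher in all 3 calactin arrays but not called (0.36 ± 0.18; limma adjusted p = 0.268).

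KLF4, one of the factors used to reprogram cells to pluripotency, had signals of 45.9, 42.9 and 34.6 with calactin and 38.2, 61.5 and 55.1 without on 221841_s_at. The groups overlapped, at -0.23 ± 0.20. Its other probe set, 220266_s_at, had a mean of 5.44 ± 5.42 with calactin and 12.5 ± 9.71 without (SD, n = 3 each).

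KLF5, which promotes growth of gut epithelium, had a probe set on each side of 0. On 209211_at the signals were 19.2, 18.9 and 38.7 with calactin and 27.7, 56.1 and 54.2 without, at -0.57 ± 0.27. On 209212_s_at they were 39.4, 34.8 and 35.9 against 20.9, 13.4 and 27.1, higher in every calactin array, at 0.55 ± 0.20. Neither was called (limma adjusted p = 0.25 and 0.12), and all 12 values lay under 60 intensity units, so no direction can be given for KLF5. KLF7, a close relative of KLF6 that is needed for axon growth, had 5 probe sets with log2 changes from -0.16 to 0.17, none of them called. On its brightest, 238517_at, the signals were 70.8, 48.6 and 86.9 with calactin and 90.1, 67.9 and 74.9 without, with overlap. The other 4 KLF7 probe sets lay below the median signal, and their groups overlapped. On 204334_at the values were 16.1, 17.4 and 24.7 against 25.2, 19.2 and 14.3, and on 240432_x_at they were 17.5, 21.6 and 8.87 against 17.04, 6.57 and 13.6. On 1555420_a_at they were 17.1, 11.4 and 5.14 against 20.8, 14.5 and 8.14, and on 238482_at they were 6.48, 6.27 and 7.41 against 5.49, 4.22 and 10.47.

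**Figure D3:**
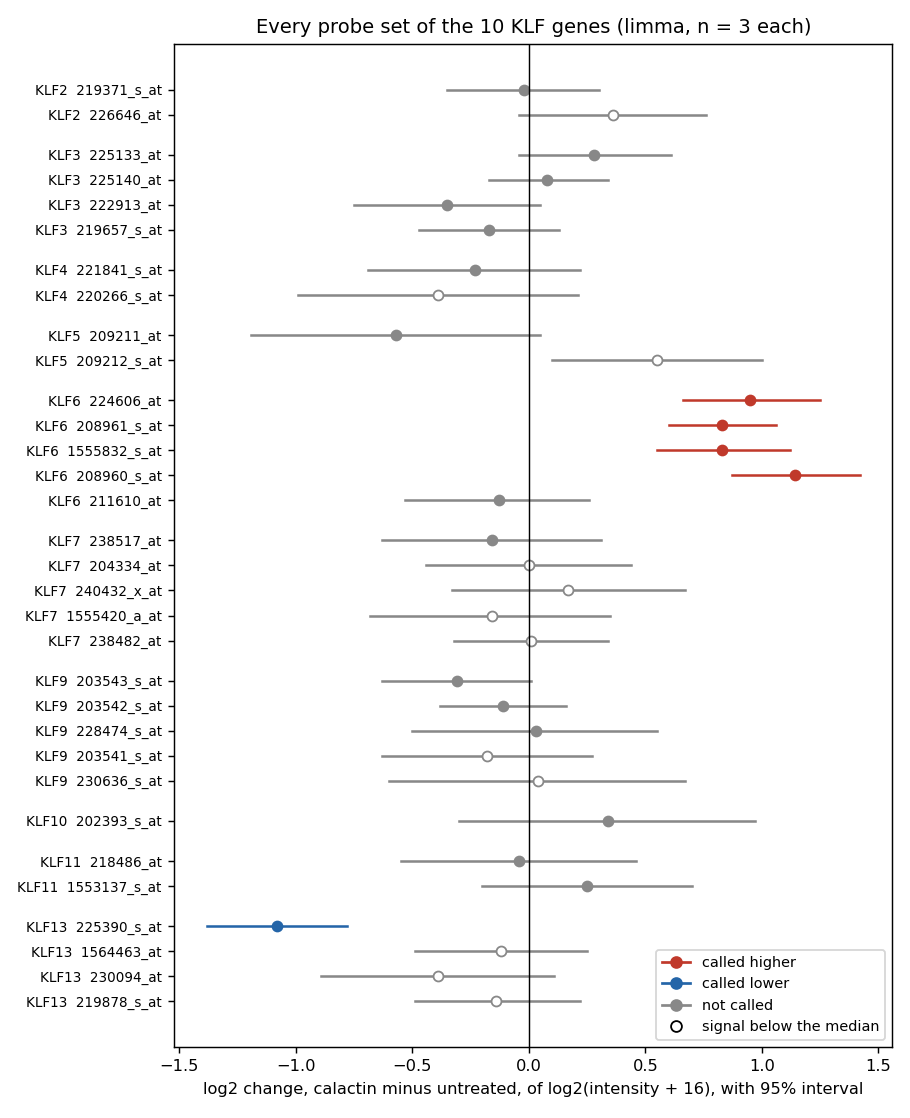
Log2 change (horizontal axis, calactin minus untreated) with its 95% interval for each of the 32 probe sets of the 10 KLF genes, red where called higher, blue where called lower and grey where not called, with open points below the median signal. Only 4 KLF6 probe sets and 1 KLF13 probe set are coloured, and the 12 open points are all grey.

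Genes linked to the KLF factors were taken as 5 lists with 62 names, of which 59 were measured, each by its brightest probe set. In the gene-level fit 8 rose and 14 fell, or 37.3%, where 21.4% of all 19775 genes were called, 4.93% higher and 16.5% lower. The lists were chosen with earlier results of these data known, and the share of all genes is not matched for signal. The difference between the 2 shares is therefore no evidence about the lists. The balance of higher and lower calls turned with the setting: 12 rose and 7 fell with quantile normalization, 7 and 5 with hybridisation spike scaling, 31 and 2 with poly-A spike scaling and the replicate block, and 3 and 13 with the mean of each gene's probe sets. With the block alone 11 rose and 13 fell: SP1, EP300 and SMAD4 were also called higher (limma adjusted p = 0.0202, 0.0354 and 0.0486), and KLF17 was no longer called (0.0584). The directions below are those without scaling, and the shares of all genes given above are the background for each list's count. The lists' median log2 change was -0.01 and that of all genes -0.06.

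Among 15 measured relatives, the remaining KLF genes and the SP genes, whose zinc fingers bind the same GC boxes, 3 rose and 5 fell. KLF1, the erythroid activator, was not called: its signals were 2306, 2596 and 2065 with calactin and 2322, 2203 and 1909 without, with overlap, at 0.11 ± 0.11 (limma adjusted p = 0.561), though it was called higher, at 0.68, with poly-A spike scaling and the block (limma adjusted p = 4.56e-03). SP2 and SP3, broadly expressed GC-box factors, rose by 0.62 ± 0.11 and 0.45 ± 0.08 (limma adjusted p = 3.51e-03 and 3.84e-03). KLF15, a factor of metabolism in muscle and liver, had signals of 20.9, 17.1 and 25.9 with calactin and 129, 66.1 and 148 without, and fell by 1.75 ± 0.26 (limma adjusted p = 1.66e-03), on 1 of its 2 probe sets, whose mean was at -1.01. KLF16, a SIN3A-binding relative of KLF13, had signals of 95.04, 89.05 and 88.8 with calactin and 201, 152 and 151 without, and fell by 0.77 ± 0.15. The groups of KLF15 and of KLF16 did not overlap, but the KLF16 call was lost with hybridisation spike scaling, at -0.68, and with poly-A spike scaling and the block, at -0.26. Averaged over their probe sets, SP2 and SP3 were at 0.10 and 0.25 and were no longer called. The SP3 call was also lost with hybridisation spike scaling, at 0.55. The other 4 calls, SP4, SP5, SP6 and KLF17, outside the naming rule, held in 9, 6, 8 and 4 alternatives of up to 18.

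Of 11 corepressors and coactivators through which KLF proteins act, 3 rose, 1 fell and 7 were not called on their brightest probe set. Among the 7, and outside the naming rule, EP300 had 1 of its 2 probe sets called higher. CREBBP and KAT2B, acetyltransferases that serve as coactivators, rose by 0.88 ± 0.12 and 1.10 ± 0.17 (limma adjusted p = 1.18e-03 and 1.80e-03). CTBP2, a CtBP corepressor of the kind KLF3 recruits, rose by 0.90 ± 0.15, from signals of 68.5, 54.4 and 56.5 to 124, 116 and 134. Averaged over its probe sets, CTBP2 was at 0.46 and not called, and CREBBP was at 0.48 and still called. SIN3B, a scaffold of histone deacetylase complexes, fell by 0.67 ± 0.18. Its call was lost without calactin replicate 2 or 3 and without untreated replicate 1 or 3, and its value was -0.12 with the mean of its probe sets. The SIN3B call was also lost with quantile normalization, at -0.49, and with hybridisation spike scaling, at -0.57. With poly-A spike scaling and the block it was at -0.20 and not called. SIN3A, CTBP1, HDAC1, HDAC2 and HDAC3, outside the naming rule, had log2 changes from -0.10 to 0.03 and were not called.

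Of 14 genes upstream of KLF transcription, 1 rose, 2 fell and 11 were not called on their brightest probe set. Among the 11, and outside the naming rule, MEF2A, MEF2C and NR3C1 each had 1 probe set called lower, of 4, 3 and 5. MAPK7, the kinase ERK5 that drives KLF2 and KLF4 in endothelium, had signals of 46.2, 33.3 and 24.1 with calactin and 74.0, 115 and 80.4 without. It fell by 1.07 ± 0.22 (limma adjusted p = 8.28e-03) on 1 of its 2 probe sets. SMAD3, which carries TGF-beta signals, fell by 0.77 ± 0.13, from signals of 387, 383 and 378 to 191, 254 and 212. SMAD2, its partner, rose by 0.56 ± 0.10 on its brightest probe set, but its 6 probe sets included 3 higher calls and 1 lower call, and their mean was at 0.16 and not called. With poly-A spike scaling and the block, MAPK7 was at -0.64 and SMAD3 at -0.23, and neither was called.

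Of 6 ubiquitin ligases of the families that target KLF proteins, 1 rose and 3 fell. FBXW7, which recognises phosphorylated substrates, fell by 0.49 ± 0.10, SMURF2 by 0.51 ± 0.12 and WWP1, a ligase for KLF2 and KLF5, by 0.37 ± 0.11. These 3 were at 0.05, 0.04 and 0.17 under poly-A spike scaling with the replicate block, where all genes had a median of 0.30. All 3 calls were also lost with quantile normalization, at -0.29, -0.33 and -0.18. The same held with hybridisation spike scaling, at -0.39, -0.42 and -0.27. The WWP1 call was lost as well with median centring, at -0.32, and when calactin replicate 1, 2 or 3 or untreated replicate 2 or 3 was left out. The SMURF2 call was lost without calactin replicate 2 or untreated replicate 3. ITCH rose by 0.71 ± 0.09 on its brightest probe set, while its 6 probe sets included 3 higher and 2 lower calls and averaged 0.06, not called.

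Of 13 measured genes that the literature names as targets of a KLF, 0 rose, 3 fell and 10 were not called in limma, and at an unadjusted p under 0.05 4 changed, all of them lower. Over all genes 4.93% were called higher and 16.5% lower, so lower calls were the more frequent ones there too. NOS3, the endothelial nitric oxide synthase and a KLF2 target there, had signals of 178, 100.2 and 119 with calactin and 738, 493 and 536 without, and fell by 2.04 ± 0.22 (limma adjusted p = 3.14e-04). PDGFA, a growth factor gene linked to KLF5, fell by 0.94 ± 0.16, and FKBP5, a glucocorticoid-induced chaperone, by 0.59 ± 0.08. Under poly-A spike scaling with the replicate block, PDGFA was at -0.40 and FKBP5 at -0.02, and neither was called, while NOS3 was called in each alternative run. The FKBP5 call was also lost with hybridisation spike scaling, at -0.49. Of the 2 NOS3 probe sets 1 was called, the dim 229093_at was at -0.45 (limma adjusted p = 0.319), and their mean was at -1.25. CCL5, the target of KLF13 in T cells, and CDKN1A were also read outside the naming rule. CCL5 lay below the median signal, at 23.6, 22.2 and 24.4 with calactin and 27.9, 28.0 and 31.5 without, and was not called. CDKN1A, the cyclin kinase inhibitor that KLF4 and KLF6 can activate, was not called, at -0.29 ± 0.21. CCND1, outside the naming rule and singled out after its values were seen, was not called on the probe set with its highest mean log2 value, while its other probe set, 208712_at, was called lower, with 10.2, 4.09 and 4.25 with calactin and 103, 99.7 and 96.6 without.

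**Figure D4:**
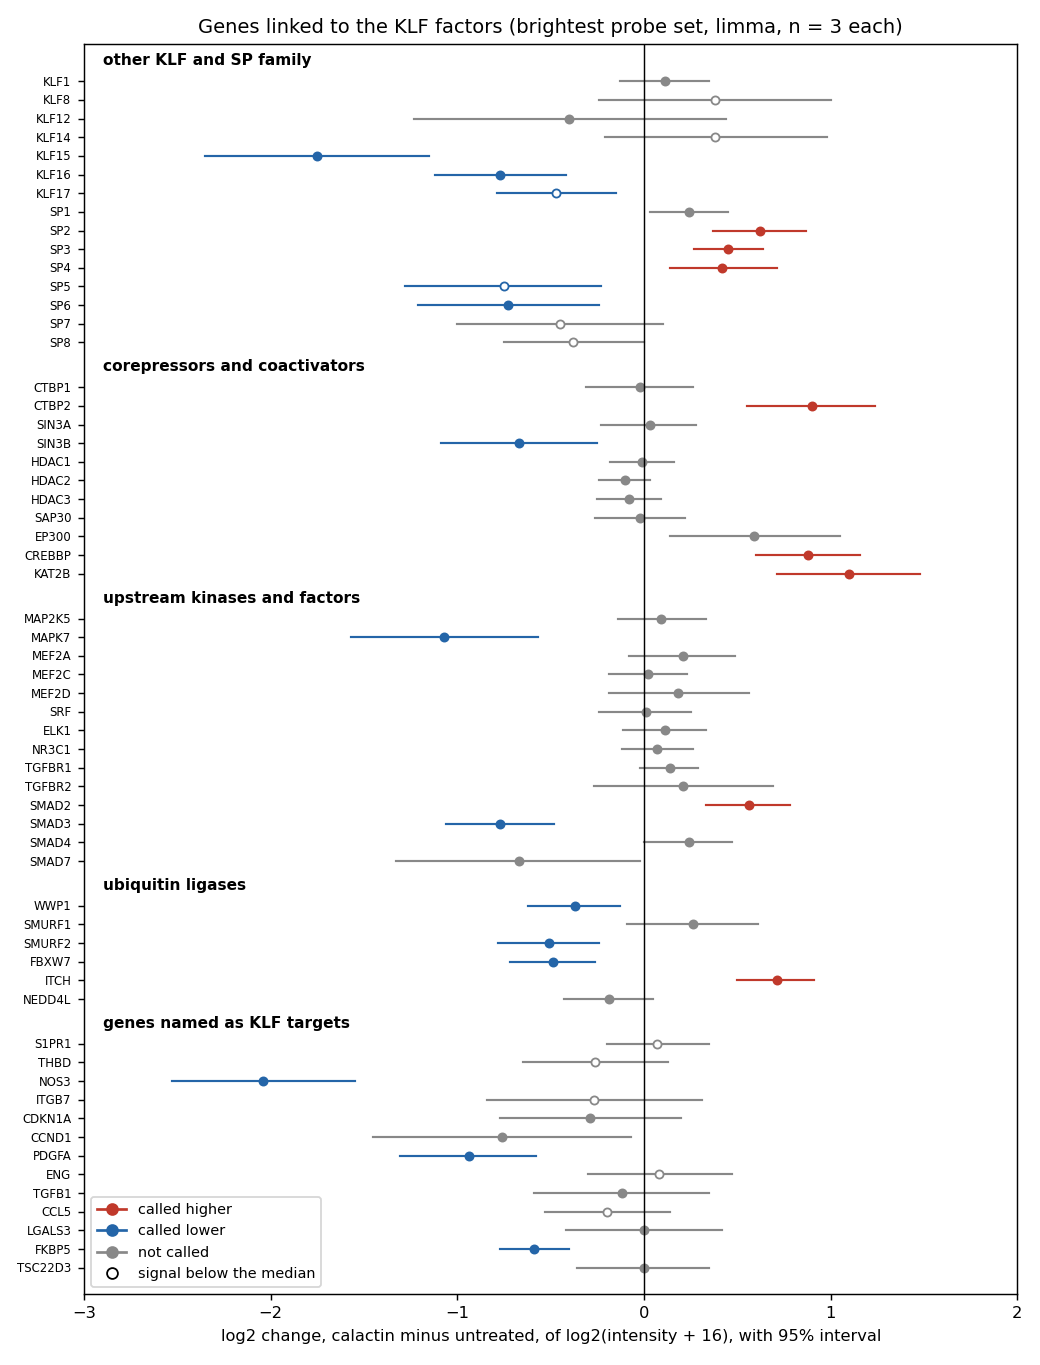
Log2 change (horizontal axis, calactin minus untreated) with its 95% interval for the 59 measured genes of the 5 lists linked to KLF factors, red where called higher, blue where called lower and grey where not called, with open points below the median signal. NOS3 and KLF15 lie farthest to the left, at -2.04 and -1.75, and KAT2B farthest to the right, at 1.10.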

How the data were processed

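Each array came with 1 linear intensity for every probe set, as deposited by the authors. Not given in the sources used here are the summary algorithm, the background correction and the scaling. Trizol extraction of RNA and labelling as biotinylated cRNA are recorded per the labels' protocols. Of 54675 rows, 62 array controls were left out. Genes were named from the platform annotation where a probe set carried 1 symbol (41091 probe sets, 41043 matched to RefSeq on GRCh38.p14 by gene identifier, with 0 symbols changed).

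limma 3.58.1 (R 4.3.3; lmFit, then eBayes with its trend option) compared 3 calactin with 3 untreated arrays on log2(intensity + 16), with no further normalization, for every probe set and, in a second fit, for the probe set of each gene with the highest mean log2 value. P-values were adjusted over all features fitted. The fit was tested on simulated data in which all arrays varied independently. That run cannot show how the fit behaves with variation shared by replicate number or with shifts of whole arrays. The number of arrays limits the precision. Members, lists and tests were chosen with earlier results of these data known.

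The naming rule took all member probe sets, the called genes of each list (the 4 with the smallest p where over 5) and KLF1; other list genes are marked in the text as outside it. Replicate numbers come from the titles. Deviations from the group means of same-numbered arrays correlated at 0.415, 0.325 and 0.240, and those of other numbers at -0.01 at most. Arrays of the same number thus varied together, though the labels name no pairing. The fit reported is without a block on the number, so its SEs and intervals include this shared variation. The blocked fit is given where it changed a call. The labels call the arrays biological replicates without naming separate cultures, and p-values measure only the spread between these samples, which may be technical. Alternatives were other scalings, pseudocounts of 1 and 64, a signal filter, other eBayes settings, the replicate block, arrays left out and other choices of probe set. Plots were drawn with matplotlib 3.10.9, and protein sequences were not used here.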

Additional observations from a re-analysis of the deposited data

How the results depend on the processing

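Of the 32 KLF probe sets, 5 were called, as they were under quantile normalization, median centring, hybridisation spike scaling, both other pseudocounts, the signal filter, both other eBayes settings and without any 1 array. With the replicate block 8 were called (6 higher, 2 lower), with poly-A spike scaling and the same block 11 (10 higher, 1 lower), and in replicates 1 and 2 alone 2. Without probe sets marked as sharing sequence 1 of 13 was called, KLF6 224606_at. By gene, 2 of 10 were called with the brightest probe set or with the mean of the probe sets. Poly-A spike scaling was run with the replicate block, so its calls differ from the unscaled fit without the block by 2 choices. The block alone left the log2 changes as they were, with the median of all probe sets at -0.05. With both, that median was 0.25, and 12 member probe sets went from a rounded log2 change below 0 to one above it. KLF11 218486_at was among them, at 0.49 (called). WWP1 was then at 0.17, SMURF2 at 0.04 and FBXW7 at 0.05. Over all probe sets, 7611 were called, 9908 with the block, 11966 with the block and poly-A spike scaling, 3430 under hybridisation spike scaling, 1619 in replicates 1 and 2 alone and 4947 to 6781 with 1 array left out, the lowest without untreated replicate 3. Lower calls were 73.6% of all calls, 71.1% with the block, 11.6% with the block and poly-A spike scaling and 54.7% under quantile normalization. Of the list genes 22 were called (8 higher, 14 lower), 24 with the block (11, 13), 33 with the block and poly-A spike scaling (31, 2), 19 under quantile normalization (12, 7), 12 under hybridisation spike scaling (7, 5), 16 with the mean of the probe sets (3, 13) and 6 in replicates 1 and 2 alone (3, 3). The causes were not tested. The replicate block changed no other call of a KLF probe set than those of KLF10 and of KLF3 225133_at and 222913_at. Low signal limits the 12 KLF probe sets below the median, 4 of KLF7, 3 of KLF13, 2 of KLF9 and 1 each of KLF2, KLF4 and KLF5.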
